A study of Drosophila melanogaster with 48 samples.

Results

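The comparison was between brains of w1118 female flies dissected 2 hr after a traumatic brain injury (TBI) and brains of uninjured w1118 females. Its members were the 3 libraries labelled w1118, female and 2 hr and the 3 libraries labelled w1118, female and control, which makes 6 of the 48 libraries of the series. All genes of the count table entered, and 5477 of its 16995 genes passed the filter on low counts and were tested. The injured females received 1 strike of a spring-driven impact device at an age of 10 to 14 days, and the control females were of the same strain, sex and age and received none. All brains of the series, controls included, were exposed to near infrared light (NIR) for 2 hr after dissection. The 2 groups therefore differed by the injury and not by the exposure, and RNA was taken only once the exposure had ended. A single library came from 15 ng of RNA, taken from 1 brain, and was made by 3′-mRNA-Seq, which counts reads near the 3′ end of transcripts. The other libraries came from w1118 males, from 1 hr and 4 hr after injury, and from a line labelled Tau-KO, a knockout of tau.

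The NIR wavelength used here inhibits cytochrome c oxidase, the terminal enzyme of the respiratory chain in mitochondria, and was applied to dampen mitochondrial activity after injury. Injury of the fly brain is known to engage antimicrobial peptides under the Toll and Imd pathways, stress chaperones, glial responses and proteolysis. The dissected adult brain holds neurons and glia, and depending on the dissection it can keep retina, head fat body, muscle and pieces of gut, whose abundant RNAs are easily recognised. In bulk RNA, fewer cells of a type and less RNA per cell cannot be told apart.

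The 6 libraries did not fall together by group. They held 447749, 1547843 and 1243843 gene counts in injured replicates 1, 2 and 3, against 659375, 639430 and 576986 in control replicates 1, 2 and 3. Injured replicate 2, the deepest, had the fewest genes with a count, 6295. Injured replicates 1 and 3 had 7399 and 8026, and control replicates 1 to 3 had 6894, 7773 and 7639. The gene MRE16 alone took 3.58%, 17.4% and 19.4% of gene counts in injured replicates 1 to 3. In control replicates 1 to 3 its share was 15.4%, 6.78% and 3.86%. To see how alike 2 libraries were, the difference of their counts across genes was expressed as chi-square per degree of freedom, which is near 1 when 2 libraries differ by sampling alone. Among the 6, injured replicate 1 was nearest to control replicate 3 at 1.49 and to control replicate 2 at 3.33, and differed from the other injured libraries by 68.6 (replicate 2) and 33.7 (replicate 3). For injured replicates 2 and 3 and control replicate 1, the closest of all other libraries still differed by 22.7, 7.15 and 12.7. These 3 are called the libraries that stand apart below (a value over 4). The measure grows with depth, so the values and the limit of 4 do not compare exactly between deep and shallow libraries. The 22.7 of injured replicate 2 was against Tau-KO male control replicate 1, which held 39517 gene counts. Injured replicate 1 and control replicates 2 and 3 are the other libraries, so that each result can be given with and without those that stand apart. Of the remaining 18 w1118 libraries, 5 stood apart by the same limit. The labels name no batch. Injured replicate 1 was thus closer to 2 of the controls than to its own group. Over all 48 libraries its nearest was the injured w1118 female 4 hr replicate 3, at 1.47. Its closeness was therefore not particular to controls.

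Neuronal markers were read in all 6 libraries. The pan-neuronal gene elav had 259, 102 and 137 CPM in injured replicates 1 to 3 and 281, 258 and 239 CPM in control replicates 1 to 3, where CPM is a gene's count scaled to a common total of gene counts. Injured replicate 2 had the lowest level of elav among all 48 libraries, and also the lowest of nSyb, which encodes a synaptic vesicle protein of neurons, at 71.7 CPM. The neuronal genes did not all follow. Syt1 had 465 CPM in injured replicate 2, above the 420 of injured replicate 3 and the 403 of control replicate 1. For brp injured replicate 2 had 171 CPM, rank 47 of the 48. Injured replicate 2 was also the lowest of the 48 for muscle myosin heavy chain Mhc, at 16.2 CPM, against 305 to 581 CPM in the control libraries. Germline genes osk and vas and the testis gene Mst87F had no count in any of the 6. The yolk protein gene Yp1, expressed in female fat body, was highest of the 48 in injured replicate 2 at 11953 CPM. The noncoding RNA roX1, part of the male dosage compensation complex, was lowest of the 48 in the same library at 47.2 CPM, against 691 to 1344 CPM in the other 18 w1118 libraries of both sexes. The part of these differences in the results was not tested.

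A gene was called where the fitted log2 fold change exceeded 1 in size and the unadjusted p was below 0.05, in edgeR's quasi-likelihood test of all 24 w1118 libraries. On this rule 296 genes were called, 5.4% of those tested, with 189 higher (3.45%) and 107 lower (1.95%) after injury. None passed a Benjamini-Hochberg adjusted p of 0.05 in that test, while 388 (7.08%) had an unadjusted p under 0.05 at any fold. DESeq2 put 1 gene past the adjusted limit, the predicted lipase CG6295, and edgeR without a filter on low counts put 26 past it. The levels of the 3 injured and 3 control libraries did not overlap for 384 genes (7.01%), of which 181 were higher (3.3%) and 203 lower (3.71%). Both criteria together held for 73 genes that were higher (1.33%) and 47 that were lower (0.858%). Called genes were of similar abundance to the rest, with a median level of 39.3 normalized CPM for those higher, 36.6 for those lower and 39.8 for the genes not called. The count depended on single libraries: 92 genes were called without injured replicate 2, 446 without injured replicate 3 and 1065 without injured replicate 1. Without the 3 libraries that stand apart it was 36 genes (0.657%), between those 3 alone it was 1238 (22.6%), and with standing apart as a term in the fit it was 345 (6.3%).

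**Figure D1:**
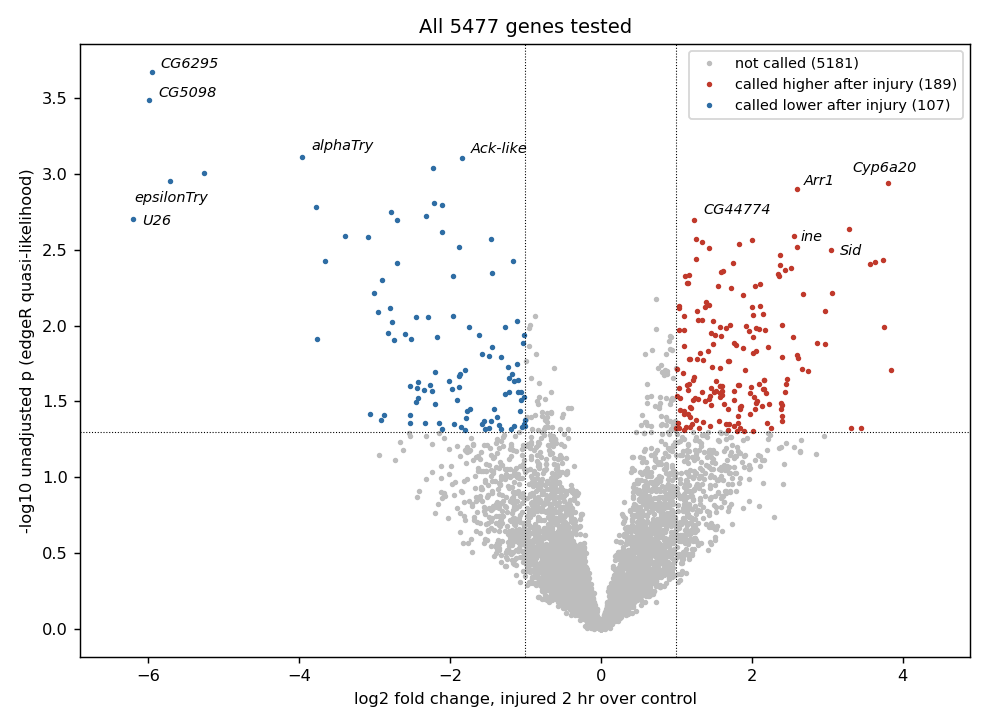
Each point is 1 of the 5477 genes tested, with the log2 fold change of injured 2 hr over control females on the x axis and the negative log10 of the unadjusted p of edgeR's quasi-likelihood test on the y axis, and dotted lines mark the limits of the call. The 189 genes called higher lie to the right and the 107 called lower to the left, where CG6295, CG5098, epsilonTry and U26 reach the lowest fitted values.

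The direction in which a gene was called followed a few libraries. Injured replicate 2 was the highest injured library for 169 of the 189 genes called higher, and the lowest for 95 of the 107 called lower. Control replicate 1 was the highest control for 82 of the 107 genes called lower and the lowest control for 108 of the 189 called higher. Set against the 18 other w1118 libraries, injured replicate 2 exceeded every one of them for 156 of the 189 genes called higher (82.5%), compared with 20.5% of all genes tested. Injured replicate 3 did so for 44 of the 189 and injured replicate 1 for 2. Across all genes tested, 46.6% had a fold change of the same sign in the libraries that stand apart and in the others. The median log2 fold change of the genes called higher was 2.34 in the libraries that stand apart and 0.27 in the others, and that of the genes called lower was -3.20 and -0.30. Only 4 genes passed the call in both sets with the same sign, and 12 passed it in both with opposite signs.

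**Figure D2:**
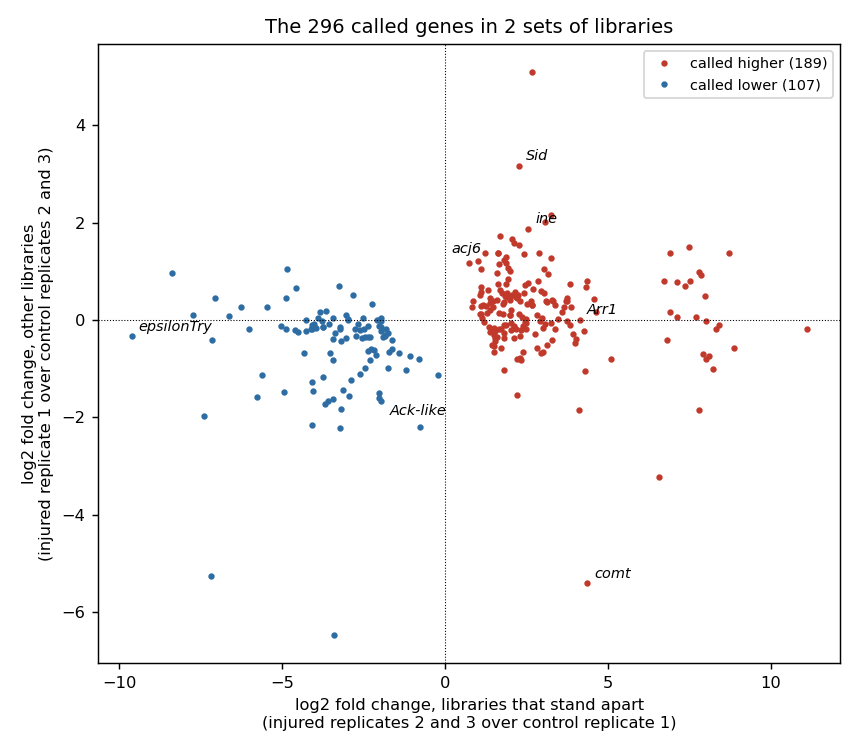
Each point is 1 of the 296 called genes, with its log2 fold change between the libraries that stand apart (injured replicates 2 and 3 over control replicate 1) on the x axis and between the others (injured replicate 1 over control replicates 2 and 3) on the y axis. The points spread widely along x and lie mostly near 0 on y. Some values beyond about 5 rest on a group with 0 counts, such as chp at 11.1 on x. Others do not, such as alphaTry at -7.06 on x.

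Called in both sets with the same sign were ine, Sid and acj6, which were higher after injury, and Ack-like, which was lower. They were picked for passing in both sets, so their values in each set are not separate support for them. More genes passed in both with opposite signs, so passing in both does not by itself speak for a gene. The gene ine encodes a transporter of the neurotransmitter symporter family, and had 20.8, 62.8 and 24.8 normalized CPM in injured replicates 1 to 3, against 7.29, 6.10 and 4.91 in control replicates 1 to 3. All 3 injured libraries lay above all 3 controls, with a log2 fold change of 2.55 (SE 0.75, unadjusted p = 0.00255, Benjamini-Hochberg adjusted p = 0.51 in edgeR's quasi-likelihood test). It was 1.88 without the libraries that stand apart and 2.56 between those alone.

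Ack-like, which encodes a non-receptor tyrosine kinase, had low counts. They were 5, 8 and 13 in injured replicates 1 to 3, against 19, 21 and 21 in control replicates 1 to 3. Ack-like stood at 10.4, 5.84 and 12 normalized CPM in injured replicates 1 to 3, against 34.6, 32.0 and 34.4 in control replicates 1 to 3. The means were 9.40 ± 3.18 in injured and 33.7 ± 1.45 in control females (SD, n = 3 each), with no overlap. The log2 fold change was -1.84 (SE 0.48, unadjusted p = 0.000788, edgeR), and it was -1.66 without the libraries that stand apart and -1.96 between those alone. The level in the 18 other w1118 libraries ran between 13.7 and 56.0 with a median of 31.7, so all 3 injured libraries lay below that range and all 3 controls within it.

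Sid encodes a stress-induced DNase. It had 22.8, 78.9 and 27.6 normalized CPM in injured replicates 1 to 3, against 10.9, 1.52 and 3.27 in control replicates 1 to 3, again without overlap. Its log2 fold change was 3.05 (SE 0.92, unadjusted p = 0.00316, edgeR), and it stayed at 3.17 without the libraries that stand apart. The POU-domain transcription factor acj6, which specifies the identity of olfactory neurons, had 31.1, 16.1 and 30.4 normalized CPM in injured replicates 1 to 3, against 7.29, 12.2 and 11.5 in control replicates 1 to 3. The log2 fold change of acj6 was 1.29 (SE 0.45, unadjusted p = 0.00916, edgeR), and 1.38 without the libraries that stand apart. Here the controls were the unusual libraries: the other 18 w1118 libraries had between 17.7 and 49.5 normalized CPM of acj6, so that the 3 controls lay below all of them while 2 of the 3 injured libraries lay within that range.

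The same held for NKAIN, whose product interacts with the sodium-potassium pump. NKAIN had 54.0, 92.0 and 57.1 normalized CPM in injured replicates 1 to 3, against 20.1, 35.1 and 29.5 in control replicates 1 to 3, while the other 18 w1118 libraries had between 40.9 and 128. Its log2 fold change of 1.26 (SE 0.39, unadjusted p = 0.00366, edgeR) thus came with low controls and with injured libraries inside the common range. It was 0.74 without the libraries that stand apart and no longer called.

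Further genes called higher without overlap had varied functions. Cyp6a20, a cytochrome P450 known for its effect on aggression in flies, had 4.15, 52.6 and 19.3 normalized CPM in injured replicates 1 to 3, against 3.65, 1.52 and 0 in control replicates 1 to 3. Its log2 fold change was 3.81 (SE 1.02, unadjusted p = 0.00114, edgeR), but injured replicate 1 and control replicate 1 lay close together, and without the libraries that stand apart it was 2.16 and not called. Mip, the precursor of the myoinhibitory peptides, had 24.9, 71.6 and 49.7 normalized CPM in injured replicates 1 to 3, against 10.9, 12.2 and 18 in control replicates 1 to 3. It was higher by 1.83 on the log2 scale (SE 0.55, unadjusted p = 0.00292, edgeR), and by 0.72 without the libraries that stand apart. Mgat2, an enzyme of N-glycan processing, was higher by 1.34 (SE 0.40) and CG44774 by 1.24 (SE 0.35), each without overlap, and the values were 0.32 and 0.51 without the libraries that stand apart. Swim, which encodes a secreted protein that binds Wingless, had 18.7, 107 and 49.7 normalized CPM in injured replicates 1 to 3, against 0, 7.62 and 6.55 in control replicates 1 to 3. Bre1, a ubiquitin ligase for histone H2B, was at 14.5, 48.2 and 46.9 in injured replicates 1 to 3, against 0, 9.15 and 11.5 in control replicates 1 to 3. The MAP kinase phosphatase MKP-4 and the mitochondrial ribosomal protein mRpL19 had the same form, with injured replicate 2 the highest at 62.1 and 76.7 normalized CPM and injured replicate 1 nearest to the controls at 6.23 and 12.5.

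Genes that were lower after injury without overlap included several of low abundance. CG5098 had no count in any injured library, against 1, 12 and 9 counts in control replicates 1 to 3. With a floor of 3 counts over the 3 injured libraries, it was at least 11.9-fold lower, a bound that covers counting error only. U26 was likewise at 0 in all 3 injured libraries, against 15, 6 and 3 counts in the controls, or at least 12.9-fold lower. Both bounds pool the 3 injured libraries, and most of that depth came from injured replicates 2 and 3, which stand apart. A floor of 3 counts in injured replicate 1 alone is 6.23 normalized CPM. The 6 and 3 counts of U26 in control replicates 2 and 3 lie near such a floor. For U26 the bound therefore rests on the libraries that stand apart. The noncoding RNA gene CR46006 had 8.30, 0 and 3.68 normalized CPM in injured replicates 1 to 3, against 20.1, 24.4 and 27.8 in control replicates 1 to 3. Its controls lay within a narrow band, and the log2 fold change was -2.78 (SE 0.78, unadjusted p = 0.00179, edgeR), or -1.63 and not called without the libraries that stand apart. The guide RNA scaRNA:MeU5-U42, which directs the modification of a spliceosomal RNA, had 4.15, 0.73 and 7.36 normalized CPM in injured replicates 1 to 3, against 67.4, 12.2 and 26.2 in control replicates 1 to 3. CG32137 and l(2)41Ab were lower by log2 fold changes of -1.87 and -1.46, and neither was called without the libraries that stand apart.

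**Figure D3:**
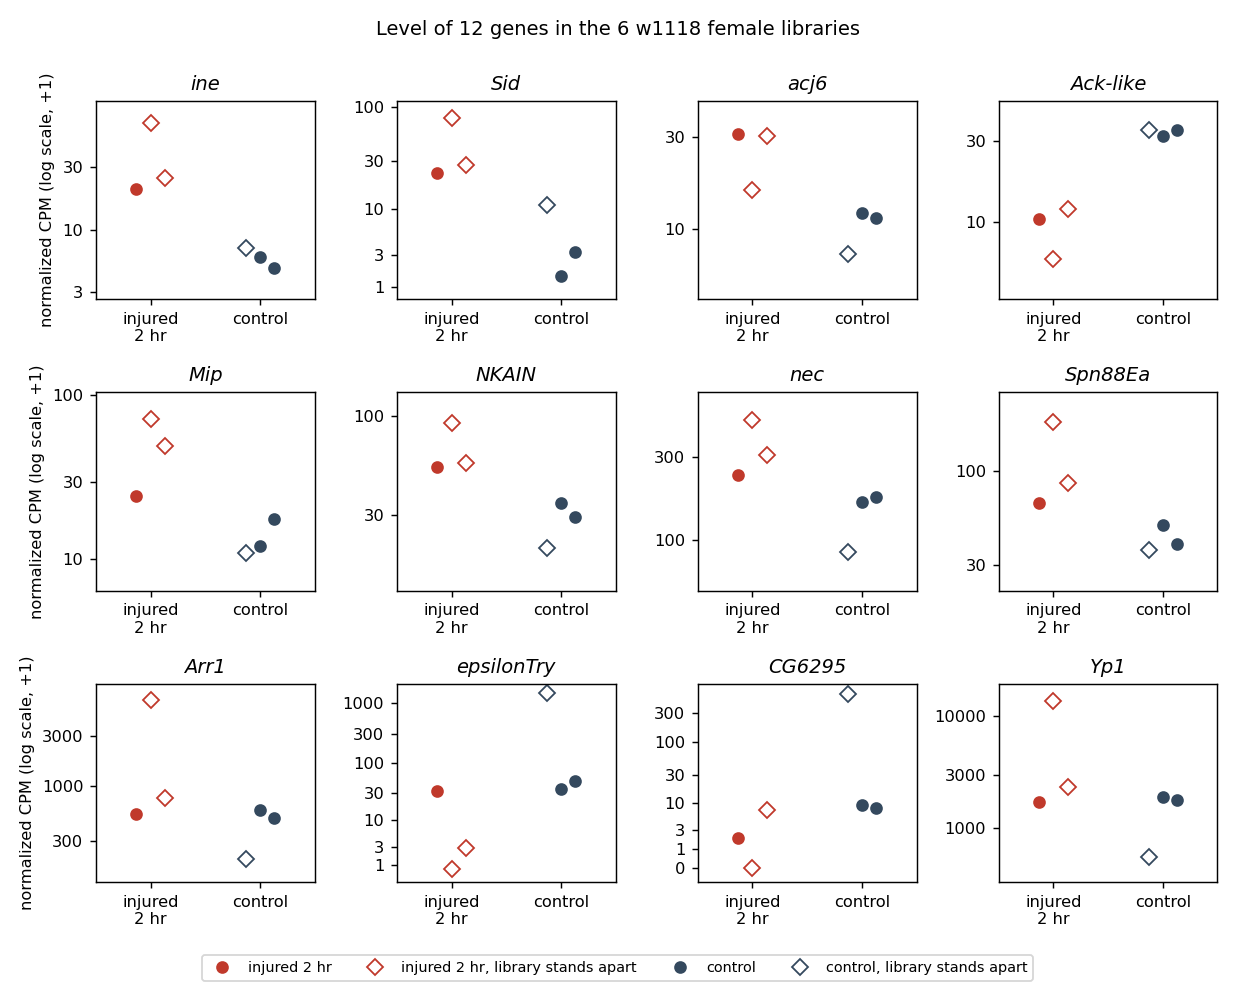
The normalized CPM of 12 genes (log scale, after adding 1) is plotted for each of the 6 libraries, with injured 2 hr females on the left and control females on the right of each panel, and open diamonds for the libraries that stand apart. The groups separate for ine, Sid, acj6 and Ack-like also among the filled circles, while for Arr1, epsilonTry and Yp1 the filled circles of the 2 groups lie side by side and the diamonds are the extremes.

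The genes of light detection had the highest median of all lists examined. Photoreceptors turn light into current through rhodopsins, a G protein, phospholipase C and the TRP channels, and arrestins end the response. Of 41 listed genes of photoreceptors and phototransduction, 33 were tested, and 8 of them were called higher and none lower, against 3.45% and 1.95% of all genes. Their median log2 fold change was 1.02, beside -0.02 over all genes tested. Without the libraries that stand apart it was 0.08, and between those alone it was 2.48. The summed level of the list was 14104, 40070 and 7337 CPM in injured replicates 1 to 3, against 4873, 12904 and 13281 CPM in control replicates 1 to 3. The other 18 w1118 libraries ran from 5101 to 14029 CPM, so injured replicate 2 lay far above them, injured replicate 1 slightly above them and control replicate 1 just below them, and the groups overlapped.

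Among its members, Arr1, an arrestin that terminates the photoresponse, had 546, 6473 and 765 normalized CPM in injured replicates 1 to 3, against 204, 588 and 496 in control replicates 1 to 3. Its log2 fold change was 2.59 (SE 0.70, unadjusted p = 0.00126, edgeR), and 0.01 without the libraries that stand apart. Rh3, a UV-sensitive rhodopsin of the inner photoreceptors, had 60.2, 622 and 20.2 normalized CPM in injured replicates 1 to 3, against 12.8, 54.9 and 52.4 in control replicates 1 to 3. Injured replicate 3 therefore lay below 2 of the controls, and the log2 fold change of 2.55 was 0.17 without the libraries that stand apart. The main rhodopsin of the outer photoreceptors, ninaE, had 722, 2686 and 421 normalized CPM in injured replicates 1 to 3, against 279, 837 and 673 in control replicates 1 to 3, with a log2 fold change of 1.10 (SE 0.53, unadjusted p = 0.0485, edgeR) that became -0.063 without the libraries that stand apart. The channels trp and trpl, the G protein subunit Gbeta76C, the rhodopsin Rh4 and the photoreceptor surface protein chp made up the other 5 called members, and injured replicate 2 was the highest of the 6 libraries in each. None of the 8 had groups that were free of overlap. Arr2, the more abundant arrestin, had 5941, 21367 and 2733 normalized CPM in injured replicates 1 to 3, against 1608, 5490.4 and 5754 in control replicates 1 to 3, and was not called (log2 fold change 1.23, SE 0.59, unadjusted p = 0.0503, edgeR).

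Digestive enzymes were the list with the lowest median. Trypsins, Jonah proteases, amylases and lipases are made in the gut, and 16 of 58 listed genes were tested. Of these, 11 were called lower and none higher, against 1.95% and 3.45% of all genes, with a median log2 fold change of -2.43. Their summed level was 1713, 352 and 1216 CPM in injured replicates 1 to 3, against 13273, 1650 and 1679 CPM in control replicates 1 to 3. Control replicate 1 held several times as much as any other of the 24 w1118 libraries, since the other 18 ran from 1099 to 1836 CPM. Without the libraries that stand apart the median was -0.02.

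The trypsin epsilonTry had 33.2, 0.73 and 2.76 normalized CPM in injured replicates 1 to 3, against 1438, 35.1 and 49.1 in control replicates 1 to 3, with a log2 fold change of -5.71 (SE 1.53, unadjusted p = 0.00111, edgeR) and of -0.34 without the libraries that stand apart. CG6295 had 2.08, 0 and 7.36 normalized CPM in injured replicates 1 to 3, against 607, 9.15 and 8.18 in control replicates 1 to 3. It had the smallest unadjusted p of all, 0.000212 (log2 fold change -5.95, SE 1.35, edgeR), and an adjusted p of 0.00268 in DESeq2. Control replicate 1 alone was high in both genes. The amylase Amy-p, at 129, 10.2 and 114 normalized CPM in injured replicates 1 to 3 and 953, 151 and 137 in control replicates 1 to 3, and the protease Jon65Aiii, at 604, 48.9 and 464 in injured replicates 1 to 3 and 3429, 687 and 655 in control replicates 1 to 3, were likewise highest in control replicate 1 and lowest in injured replicate 2. The mucin Muc68D and the unnamed gene CG34220 followed, and CG34220 had 4905, 842 and 5789.5 normalized CPM in injured replicates 1 to 3, against 39279, 5141 and 5254 in control replicates 1 to 3.

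**Figure D4:**
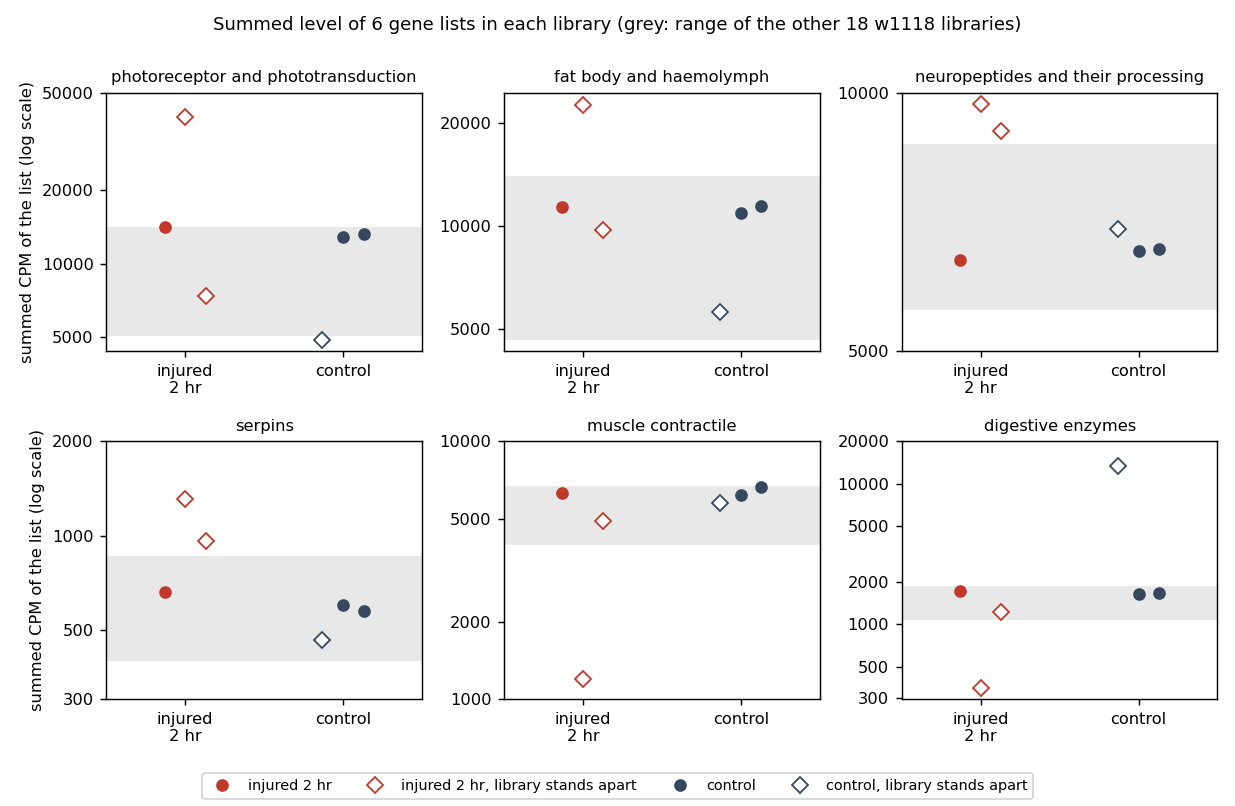
The summed CPM of the members of 6 gene lists (log scale) is plotted for each of the 6 libraries, with injured 2 hr females on the left, control females on the right, open diamonds for libraries that stand apart, and a grey band for the range of the other 18 w1118 libraries. Injured replicate 2 lies outside the band in all 6 panels, and control replicate 1 lies far above it for digestive enzymes at 13273 CPM.

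Muscle genes pointed down with few calls. Of 27 contractile genes tested, 25 had a negative fold change, with a median of -0.58. Of the 27, 1 was called lower, against 1.95% of all genes. That gene was Zasp66, which encodes a protein of the sarcomere Z-disc, with 74.7, 14.6 and 59.8 normalized CPM in injured replicates 1 to 3, against 166, 108 and 121 in control replicates 1 to 3. It was free of overlap, with a log2 fold change of -1.44 (SE 0.46, unadjusted p = 0.00452, edgeR), or -0.62 and not called without the libraries that stand apart. The summed list was 6300.4, 1192 and 4897 CPM in injured replicates 1 to 3, against 5762, 6185 and 6681 CPM in control replicates 1 to 3, so injured replicate 2 was by far the lowest, and the median was -0.10 without the libraries that stand apart.

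Fat body products had calls in the other direction. Of 23 tested, 4 were called higher and none lower, against 3.45% and 1.95% of all genes, namely the yolk protein genes Yp1, Yp2 and Yp3 and the lipoprotein gene Apoltp, and the median was 0.36. Yp2 had 482, 4989 and 1759 normalized CPM in injured replicates 1 to 3, against 221, 616 and 566 in control replicates 1 to 3. Its log2 fold change was 2.37 (SE 0.75, unadjusted p = 0.0047, edgeR), yet injured replicate 1 lay below 2 controls and the value without the libraries that stand apart was -0.30. The list summed to 11410, 22641 and 9757 CPM in injured replicates 1 to 3, against 5604, 10963 and 11446 CPM in control replicates 1 to 3.

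Among innate immune genes the calls were near the share over all genes (3.45% higher and 1.95% lower). Of 18 antimicrobial peptide genes tested, 1 was called higher and none lower, with a median log2 fold change of 0.40 that became -0.23 without the libraries that stand apart. The called gene was the immune-induced peptide gene IM33, with 378, 1389.8 and 598 normalized CPM in injured replicates 1 to 3, against 461, 355 and 337 in control replicates 1 to 3. It was higher by 1.04 on the log2 scale (SE 0.35), and by 0.13 without the libraries that stand apart. Drs, the peptide read most often as an output of Toll signalling, had 394, 565 and 664 normalized CPM in injured replicates 1 to 3 and 335, 499.96 and 427 in control replicates 1 to 3, and was not called (log2 fold change 0.36, SE 0.28, unadjusted p = 0.213, edgeR). For Mtk the means were 192 ± 37.5 in injured and 193 ± 29.3 normalized CPM in control females (SD, n = 3 each). AttC was highest in injured replicate 3 at 164, against 10.9 to 31.1 in the controls, but it was at 10.4 in injured replicate 1.

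Among 30 tested components of the Toll, Imd and JAK-STAT pathways, 1 was called higher and 1 lower, against 3.45% and 1.95% of all genes. The adaptor imd had 6.23, 2.92 and 12.9 normalized CPM in injured replicates 1 to 3, against 58.3, 18.3 and 11.5 in control replicates 1 to 3. The groups overlapped, and the log2 fold change was -1.96 (SE 0.68, unadjusted p = 0.00865, edgeR), or -1.24 and not called without the libraries that stand apart. The NF-kappaB factor Rel, which acts downstream of imd, had 104, 199 and 129 normalized CPM in injured replicates 1 to 3, against 51.0, 88.4 and 101 in control replicates 1 to 3. It was free of overlap and not called (0.85, SE 0.43, unadjusted p = 0.0603, edgeR).

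The other called pathway gene, nec, belongs to the serpins, which inhibit serine proteases and hold back the protease cascades of Toll signalling and melanization. It had 235, 483 and 305 normalized CPM in injured replicates 1 to 3, against 85.7, 165 and 177 in control replicates 1 to 3. The log2 fold change was 1.26 (SE 0.37, unadjusted p = 0.00268, edgeR), without overlap, and 0.46 without the libraries that stand apart. Serpins were listed only once nec and 2 others had been seen among the leading genes. Of 8 tested, 4 were called higher and none lower, against 3.45% and 1.95% of all genes, so that count is a description. Spn88Ea had 66.4, 187 and 85.6 normalized CPM in injured replicates 1 to 3, against 36.5, 50.3 and 39.3 in control replicates 1 to 3, and its log2 fold change of 1.43 (SE 0.43) was 0.56 without the libraries that stand apart. Spn28Dc differed in form, since injured replicate 3 was its highest library at 236 normalized CPM, against 14.6 to 30.5 in the controls. Spn43Ab was called with overlapping groups, and Spn27A, an inhibitor of melanization, stood at 65.1 ± 1.46 in injured and 75.2 ± 13.5 normalized CPM in control females (SD, n = 3 each). The median of the 8 was 0.62, and -0.04 without the libraries that stand apart.

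**Figure D5:**
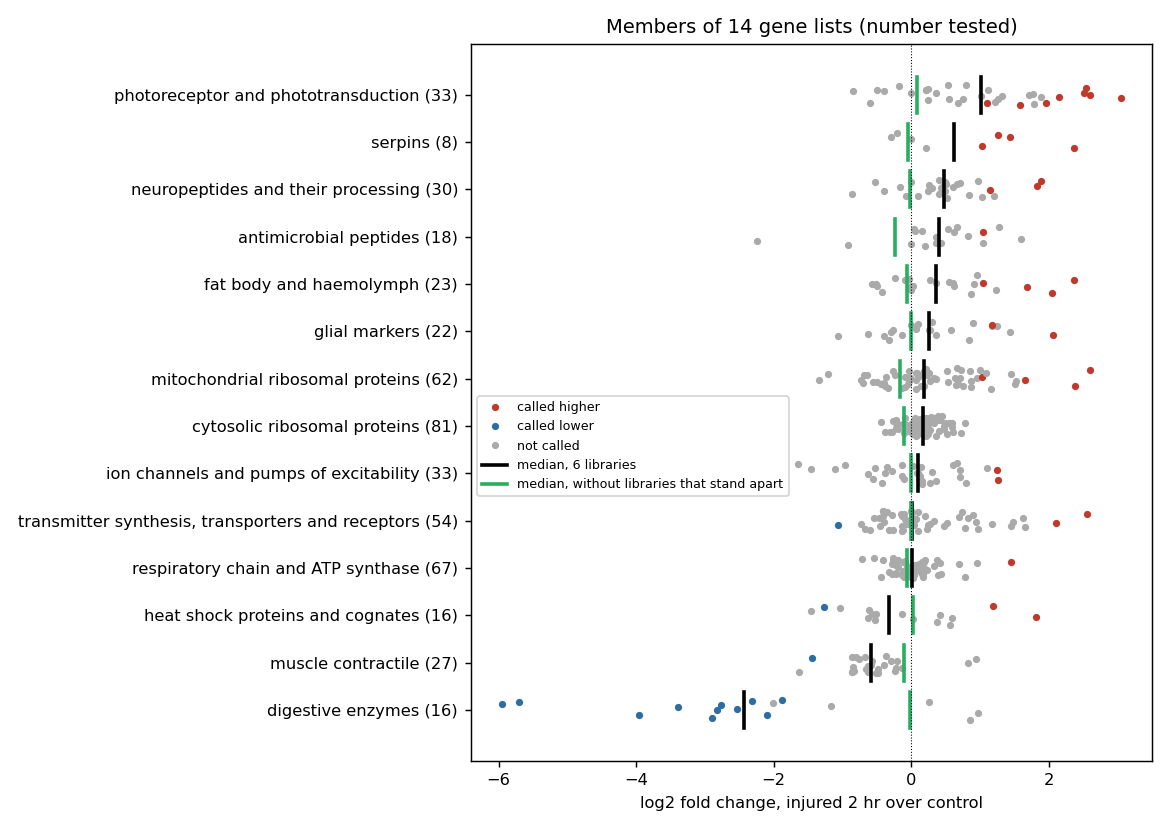
Each point is a tested member of 1 of 14 gene lists, placed by its log2 fold change of injured 2 hr over control females, and the bars are the median over the 6 libraries (black) and without the libraries that stand apart (green). The black medians run between 1.02 for photoreceptor genes and -2.43 for digestive enzymes, and the green ones lie between -0.23 and 0.08.

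Genes of neuronal signalling were mostly not called. Of 30 neuropeptide and peptide-processing genes, 3 were called higher, against 3.45% of all genes, with a median of 0.48 that became -0.01 without the libraries that stand apart. Besides Mip these were Proc, the proctolin precursor, and Ilp2, an insulin-like peptide of the median neurosecretory cells. Ilp2 had 152, 697 and 406 normalized CPM in injured replicates 1 to 3, against 182, 195 and 189.9 in control replicates 1 to 3, so injured replicates 2 and 3 were high and injured replicate 1 was below all controls. Proc had 20.8, 284 and 119.6 in injured replicates 1 to 3, against 43.8, 38.1 and 34.4 in control replicates 1 to 3, with injured replicate 1 again below all controls. Their log2 fold changes of 1.15 for Ilp2 and 1.88 for Proc were -0.34 and -0.80 without the libraries that stand apart.

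For scale, 3.45% of all genes tested were called higher and 1.95% lower. Of 54 genes of transmitter synthesis, transport and reception, ine and e were called higher and the glutamate receptor mGluR lower. The gene e is ebony, whose product conjugates amines to beta-alanine. The median of the 54 was 0.01. Of 33 ion channel and pump genes, 2 were called higher, NKAIN and the potassium channel Irk2, and of 28 synaptic vesicle genes 1 was, comt, which encodes the fusion factor NSF. The comt gene had 0, 46.7 and 35.9 normalized CPM in injured replicates 1 to 3, against 1.82, 12.2 and 3.27 in control replicates 1 to 3, so the call rested on injured replicates 2 and 3. Of 22 glial markers, 2 were called higher, including the astrocyte gene alrm. It had 24.9, 148 and 60.7 normalized CPM in injured replicates 1 to 3, against 21.9, 19.8 and 14.7 in control replicates 1 to 3. The groups did not overlap (log2 fold change 2.06, SE 0.78, unadjusted p = 0.0146, edgeR), although injured replicate 1 was close to control replicate 1 and the value was 0.52 without the libraries that stand apart. The pan-glial factor repo was lower in 2 of the 3 injured libraries than the median control and was not called, with 18.7, 1.46 and 10.1 normalized CPM in injured replicates 1 to 3, against 20.1, 6.10 and 18 in control replicates 1 to 3.

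Mitochondrial genes are of interest because the light acts on the respiratory chain. Of 67 tested genes of the respiratory chain and ATP synthase, 1 was called higher and none lower, with a median of 0.01. That gene was ND-18, a subunit of complex I, at 37.4, 78.9 and 190.5 normalized CPM in injured replicates 1 to 3, against 31.0, 54.9 and 26.2 in control replicates 1 to 3. The log2 fold change of 1.46 (SE 0.64) was -0.12 without the libraries that stand apart. Of 62 mitochondrial ribosomal protein genes, 4 were called higher (mRpL13, mRpL19, mRpL50 and mRpS22), against 3.45% of all genes, and the median of 0.19 became -0.16 without the libraries that stand apart. None of 81 cytosolic ribosomal protein genes and none of 28 proteasome genes were called.

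Stress and injury genes were scattered. Of 16 heat shock genes, 2 were called higher and 1 lower, against 3.45% and 1.95% of all genes, with a median of -0.32. The heat-inducible noncoding RNA Hsromega had 241, 65.0 and 239 normalized CPM in injured replicates 1 to 3, against 784, 268 and 255 in control replicates 1 to 3, without overlap (log2 fold change -1.27, SE 0.45, unadjusted p = 0.0101, edgeR), and its value was -0.12 without the libraries that stand apart. The heat shock factor gene Hsf and the small heat shock protein gene Hsp67Ba were called higher with overlapping groups, and without the libraries that stand apart their values were -0.78 and 1.37. None of 25 genes of JNK signalling, apoptosis and wound repair, none of 13 activity-regulated transcription factors and none of 13 clock genes were called. Of 19 antioxidant genes, 1 was called higher, the thioredoxin reductase Trxr-1. The microtubule-binding protein gene tau had 164, 62.1 and 84.7 normalized CPM in injured replicates 1 to 3, against 164, 162 and 146 in control replicates 1 to 3, and was not called (-0.62, SE 0.33, unadjusted p = 0.0744, edgeR). Of 32 cytoskeletal genes 1 was called lower, the microtubule-associated Map205.

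To see which differences belonged to this time and sex, the 2 hr females were set against injured females at 1 hr and at 4 hr in the same fit, and the injury response was tested for a difference from that of males and of the females labelled Tau-KO. The counts of tau do not set that label apart: the gene had 90.9 to 256 CPM (median 148) in the 24 libraries labelled Tau-KO, and 54.9 to 212 CPM (median 153) in the 24 w1118 libraries. The allele, and whether the 3′ reads lie outside its deleted part, are not given in the sources used here, so the comparison of strains is one of labels. Nor does roX1 set the sex label apart, since the other 18 w1118 libraries of both sexes ran from 691 to 1344 CPM. Injured replicate 1 and control replicates 2 and 3 lay within that range, at 1070, 916 and 983 CPM. Injured replicates 2 and 3 and control replicate 1 lay below it, at 47.2, 606 and 570 CPM. The comparison of sexes is thus also one of labels. These comparisons share the 2 hr libraries, and those of sex and strain also share the controls, so they are not independent of the results above. At 2 hr 165 genes (3.01%) were called against the 1 hr females and 352 genes (6.43%) against the 4 hr females. Replicates 2 and 3 stood apart at 2 hr, replicate 2 did at 1 hr, and no library did at 4 hr. A difference of time and one of libraries that stand apart cannot be told apart here, for the counts or for single genes. For the injury response, 184 genes (3.36%) were called between females and males. Between w1118 females and those labelled Tau-KO, 240 of 5821 genes (4.12%) were called. None passed a Benjamini-Hochberg adjusted p of 0.05 in edgeR in any of the 4. An unadjusted p under 0.05 at any fold was found for 230 genes against 1 hr (4.2%) and 469 against 4 hr (8.56%). It was found for 191 genes for sex (3.49%) and 261 for strain (4.48%). For 1 hr, sex and strain these shares lay under the fraction of 0.05 that the limit itself passes without any difference. The counts of called genes too hung on injured replicate 2, without which they were 34 against 1 hr, 68 against 4 hr, 116 for sex and 149 for strain. They also moved by over 1.5 times without injured replicate 1, to 989, 1297, 616 and 546 in the same order, and without injured replicate 3 the counts against 1 hr, for sex and for strain were 293, 301 and 460. The count against 1 hr was 52, 361 and 60 without 1 hr replicates 1, 2 and 3, that against 4 hr was 163 and 172 without 4 hr replicates 1 and 3, and that for strain was 142 without control replicate 1.

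Of the genes described first, Ack-like was lower at 2 hr than at 1 hr by a log2 difference of -1.46 (SE 0.48, unadjusted p = 0.00568, edgeR) and than at 4 hr by -1.60 (SE 0.48, unadjusted p = 0.00307, edgeR). Its levels were 19.2, 21.0 and 37.5 normalized CPM at 1 hr and 21.2, 36.5 and 26.4 at 4 hr. The difference in response between females and males was -2.14 (unadjusted p = 0.00319, edgeR) and that from the females labelled Tau-KO was -1.26 and missed the limit (unadjusted p = 0.0729). The level of ine was 13.3, 28.4 and 9.37 normalized CPM at 1 hr and 7.06, 9.94 and 6.61 at 4 hr. It was higher at 2 hr than at 4 hr by 2.17 (SE 0.75, unadjusted p = 0.00875, edgeR), whereas the difference from 1 hr of 1.08 was not called (unadjusted p = 0.128). For acj6 neither time differed at the limit (0.35 against 1 hr and -0.53 against 4 hr), while the sex difference was 2.13 (SE 0.62, unadjusted p = 0.00237, edgeR). The male levels were 21.3, 23.0 and 18.2 normalized CPM in injured males, against 40.0, 49.5 and 22.7 in control males. NKAIN likewise gave -0.15 against 1 hr and 0.17 against 4 hr, with 1.90 for the sex difference (SE 0.54, unadjusted p = 0.00199, edgeR). The difference of nec between strains was 1.88 (SE 0.44, unadjusted p = 0.000118, edgeR), and its values against 1 hr and 4 hr, 0.62 and 0.71, were not called. Cyp6a20 was called in all 4 comparisons, at 3.05 against 1 hr, 2.46 against 4 hr, 3.34 for sex and 4.76 for strain.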

How the data were processed

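Libraries were prepared with the QuantSeq 3′ kit, and the deposited values are HTSeq counts of reads per gene, not normalized. Per the submitters' notes and the study's methods the authors used CASAVA 1.8.2, STAR 2.4 and the dm3 genome, and edgeR 3.22.3 for their own tests; the strand setting and annotation of the counting are not given in the sources used here, so overlapping and antisense genes cannot be told apart. The authors' comparison tables (log2 fold change, p-value and FDR) were not used. The 5 entries that name no gene were left out; they held 23.1% to 38.2% of the counts of the 6 libraries. Libraries were grouped by the labels, and the study's methods call the replicates biological; p-values measure the spread between these single-brain libraries.

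R 4.3.3 with edgeR 4.0.16 was used. Genes were kept by filterByExpr, scaled by TMM (giving normalized CPM; summed lists and marker levels are CPM of all gene counts), and fitted with a mean for each of the 8 w1118 groups (biological coefficient of variation 0.472), or of all groups of the 48 libraries for the strain comparison. SE is the standard error of the log2 fold change. Pairs of libraries were compared on genes whose counts in the pair reached 20. Fits with a mean for each group and status gave values with and without the libraries that stand apart; they were added after the data were seen, and assume that a lone library varies like the other groups. Alternatives were DESeq2 1.42.0 and its size factors, other filters, fewer libraries, a replicate block, thinning to 447749 counts, and leaving out each replicate of the w1118 female groups compared. The code was tested on simulated data. Named genes were, per direction, the 15 called genes without overlap of smallest p, genes past an adjusted p, called list members and label checks; the text gives a selection made after values were seen. Genes and lists were chosen with earlier results of these data known. Coordinates are not printed, because the annotation at hand is of another build than the counts.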

Additional observations from a re-analysis of the deposited data

How the results depend on the processing

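The count of called genes was 296, and 30 to 1238 under the alternatives below. It was 337 with DESeq2 size factors, 361 with a stricter filter, 411 with DESeq2, 239 in the 12 female libraries and 274 after thinning, but 792 without a filter and 72 with only the 6 libraries. Leaving out 1 replicate gave 92 to 1065. Without the libraries that stand apart it was 36, or 113 when those libraries were left out of the fit, with 7 and 17 of the 296 genes still called and 91 and 92 of them turned in sign, and with only them 1238, while a term for standing apart gave 345. Genes past the adjusted p numbered 26 without a filter, 1 with DESeq2, 396 with only the libraries that stand apart, 0 to 21 when leaving out 1 replicate (21 without injured replicate 1), and 0 under the other settings. Without a filter the sex, 1 hr, 4 hr and strain comparisons called 496, 441, 757 and 507 genes, DESeq2 called 255 against 1 hr, and leaving out 1 replicate gave 116 to 616, 34 to 989, 68 to 1297 and 142 to 546. Only w1118 female replicates were left out in turn, so the ranges for sex and strain do not cover the male and Tau-KO libraries. Same-numbered injured and control libraries did not deviate together (correlations -0.45, -0.10 and -0.35). With 3 libraries a group, some of them standing apart, these correlations cannot decide whether the numbers pair the samples. A replicate block called 306 genes in the 24 libraries and 30 in the 6. Of the 296 genes, 27 were called under every omission of 1 replicate, and 65 were called without injured replicate 2. Without injured replicate 2 the log2 fold change was -0.046 for Rh3 and -0.056 for ninaE (ranges over omissions of 1 replicate: -0.046 to 3.07 and -0.056 to 1.504). Among 76 called genes followed one by one, the sign without the libraries that stand apart turned for 19. These were ninaE (-0.063), chp (-0.19), trp (-0.070), Proc (-0.80), Ilp2 (-0.34), alphaTry (0.45), Jon74E (0.45), Muc68D (0.045), Yp1 (-0.10), Yp2 (-0.30) and Yp3 (-0.16). The others were Hsf (-0.78), mRpL13 (-0.41), mRpS22 (-0.20), Spn43Ab (-0.24), ND-18 (-0.12), Trxr-1 (-0.033), InR (0.036) and comt (-5.41). The value for comt rests on 0 counts in injured replicate 1. AttC, which was not called, turned from 1.59 to -1.48. The cause of these shifts was not tested. Injured replicate 1, with 447749 gene counts, was the shallowest of the 6, so genes at a few normalized CPM rest on single counts there.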

Other observations

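Of all genes tested, 3.45% were called higher and 1.95% lower. Of 31 cytochrome P450 genes, Cyp6a20 and Cyp6u1 were called higher and Cyp317a1 lower, with a median log2 fold change of 0.07. Cyp317a1 had 72.7, 11 and 26.7 normalized CPM in injured replicates 1 to 3, against 65.6, 83.8 and 81.8 in control replicates 1 to 3, so that injured replicate 1 lay among the controls. Of 5 dosage compensation genes 1 was called higher, the helicase mle, with 54.0, 129 and 65.3 normalized CPM in injured replicates 1 to 3, against 45.6, 39.6 and 32.7 in control replicates 1 to 3. The unnamed gene CG7787 was among those called under every omission of 1 replicate. It was at 27.4 ± 2.75 normalized CPM in injured and 10.4 ± 2.91 in control females (SD, n = 3 each). The control level rests on 4, 7 and 8 counts in replicates 1 to 3. Of the 8 tested haemocyte genes none was called.

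The 4 tested genes SdhA to SdhD of succinate dehydrogenase, complex II of the respiratory chain, were higher in the libraries that stand apart, whichever their group. SdhB had 33.2, 207 and 214 normalized CPM in injured replicates 1 to 3, against 184, 56.4 and 42.6 in control replicates 1 to 3, and SdhA had 27, 91.3 and 147 in injured replicates 1 to 3, against 169.5, 21.3 and 24.6 in control replicates 1 to 3. SdhC had 274, 426 and 304 normalized CPM in injured replicates 1 to 3, against 370.1, 282 and 250.4 in control replicates 1 to 3, and SdhD had 168, 329 and 439 in injured replicates 1 to 3, against 288, 169 and 237 in control replicates 1 to 3. In all 4 genes the 3 libraries that stand apart were the 3 highest of the 6. None was called, with log2 fold changes of 0.33 for SdhA, 0.70 for SdhB, 0.16 for SdhC and 0.44 for SdhD. These genes were picked after their values were seen. The share of all genes tested that split in the same way was not counted, so this describes 4 genes and is no result about complex II.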
